A study of Mus musculus with 32 samples.

Results

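Chemokine receptors are G protein-coupled proteins of the cell surface that steer leukocytes along gradients of small secreted ligands, the chemokines. Ligand binding activates Gi proteins, and G protein-coupled receptor kinases, arrestins and RGS proteins end the signal. On monocytes and macrophages these receptors govern exit from the bone marrow, entry into inflamed tissue and residence there, and their levels are known to shift when a Toll-like receptor or the type I interferon receptor is engaged. The genes described here are the 8 members Ccr2, Ccr3, Ccr7, Ccrl2, Cx3cr1, Cxcr3, Cxcr4 and Cxcr6, taken as all probes that carry one of these gene names in the scanner files. They were 11 of the 55681 probes on the array and 8 of the 24082 gene symbols, and all 8 were among the 16035 genes tested.

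The cells were bone marrow-derived macrophages (BMDMs), obtained by culturing mouse bone marrow with M-CSF, from wild-type C57BL/6J mice (WT) and from mice without a functional Ifnar1, a chain of the type I interferon receptor (Ifnar1-/-). Cells of each genotype were left untreated or received zVAD alone, or either LPS or IFNβ, each given alone, together with zVAD, or together with zVAD and Nec-1, for 6 h. There were 2 arrays in each of the 16 groups and 32 arrays in all. LPS is the bacterial ligand of TLR4, zVAD is a pan-caspase inhibitor, and Nec-1 inhibits the kinase RipK1. Per the labels, LPS was given at 100 ng/mL and 1000 U/mL of IFNβ was used, while the methods text and figure legends name other doses of both, so the dose is uncertain. Combining LPS or IFNβ with zVAD is used to stimulate necroptosis, and Nec-1 to block it.

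No source used here says whether the 2 arrays of a group came from separate animals or cultures, so p-values measure only the spread between these arrays, which may be technical. Of the macrophage markers, 8 of 8 were well above background on every array, and their summed log2 intensity stayed between 19.63 and 20.10. The brightest weigh most in that sum, such as Csf1r at 17.68 to 18.47. Dimmer markers moved more, with Fcgr1 at 6.81 to 16.73 and Mertk at 8.57 to 14.05. The arrays lie on 4 slides, each holding the 8 treatments of 1 genotype with 1 replicate number, so genotype and slide cannot be told apart when the genotypes are compared within a treatment. Ifnar1 itself read 14.19 and 14.22 on the untreated WT arrays and 11.87 and 11.89 on the untreated Ifnar1-/- arrays, but over all treatments the WT range (9.02 to 14.76) covered the Ifnar1-/- range (11.16 to 12.44), and whether the probe lies in the deleted part is not known here. The 2 Ifnar1-/- LPS+zVAD+Nec-1 arrays stood apart from each other, with a correlation of 0.947 over all genes against 0.973 to 0.991 within the other groups. Replicate 1 of that group was closest to Ifnar1-/- LPS replicate 1 and replicate 2 to Ifnar1-/- IFNβ+zVAD+Nec-1 replicate 2, and where leaving out 1 of them changed a call of a member, or moved a called value by over 1.5 times, the value without it is given below.

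Levels are log2 normalized intensities, and a change is a difference between the means of 2 groups on that scale, with its standard error (SE) and a p-value from limma adjusted over all genes tested. A gene is called changed at an adjusted p under 0.05. Levels of different genes come from different probes and were not set against each other. The probe positions refer to the mm9 assembly. The probe used for Cxcr4 lies on chromosome 1 from 130485079 to 130485138, that for Cxcr3 on chromosome X from 98926920 to 98926979, and that for Ccr7 on chromosome 11 from 99005551 to 99005610. The others lie on chromosome 9, with Cxcr6 from 123720719 to 123720778, Cx3cr1 from 119957811 to 119957870, Ccr2 from 124022948 to 124023007, Ccr3 from 123945225 to 123945284, and Ccrl2 from 110957397 to 110957456. The probes in use were well above background on all 32 arrays, except that of Cxcr6, which passed on 29.

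Promoters, taken as 300 bases around an annotated start site, were at hand from RefSeq (GRCm38.p6) for 7 of the 8 members. Those of Cxcr4, Cx3cr1, Cxcr3 and Ccrl2 are shown because the fall and return of Cxcr4, the falls of Cx3cr1 and Cxcr3 with IFNβ and the rise of Ccrl2 are the results described most fully. Capitals mark matches, on either strand, to any of 6 motifs searched: the ISRE core GAAANNGAA, the GAS element TTCNNNGAA, part of the NF-kappaB site GGGNNTTTC, the cAMP response element TGACGTCA, the AP-1 site TGANTCA and the HIF core ACGTG.
Cxcr4, chr1:128592250-128592549, minus strand: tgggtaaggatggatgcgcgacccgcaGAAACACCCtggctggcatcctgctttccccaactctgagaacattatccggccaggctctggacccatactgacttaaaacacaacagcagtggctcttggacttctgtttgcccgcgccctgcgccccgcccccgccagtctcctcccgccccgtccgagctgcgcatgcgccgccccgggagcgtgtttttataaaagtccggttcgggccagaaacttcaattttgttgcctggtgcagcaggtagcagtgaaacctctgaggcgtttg
Cx3cr1, chr9:120068247-120068546, minus strand: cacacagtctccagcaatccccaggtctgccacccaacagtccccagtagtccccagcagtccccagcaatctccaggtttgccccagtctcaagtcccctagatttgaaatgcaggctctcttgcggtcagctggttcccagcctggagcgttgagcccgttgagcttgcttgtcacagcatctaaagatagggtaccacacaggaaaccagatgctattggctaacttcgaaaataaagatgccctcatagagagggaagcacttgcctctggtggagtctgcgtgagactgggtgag
Cxcr3, chrX:101734098-101734397, minus strand: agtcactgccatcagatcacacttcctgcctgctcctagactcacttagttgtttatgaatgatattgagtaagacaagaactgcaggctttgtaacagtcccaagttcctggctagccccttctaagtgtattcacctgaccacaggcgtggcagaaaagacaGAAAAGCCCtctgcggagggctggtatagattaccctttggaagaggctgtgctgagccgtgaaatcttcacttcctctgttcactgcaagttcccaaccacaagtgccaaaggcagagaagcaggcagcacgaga
Ccrl2, chr9:111057469-111057768, minus strand: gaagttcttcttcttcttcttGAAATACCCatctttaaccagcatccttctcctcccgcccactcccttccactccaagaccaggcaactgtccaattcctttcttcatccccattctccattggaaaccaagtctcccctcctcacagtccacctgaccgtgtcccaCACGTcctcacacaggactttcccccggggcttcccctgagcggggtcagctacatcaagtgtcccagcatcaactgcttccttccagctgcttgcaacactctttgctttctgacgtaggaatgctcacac
The capitals in Cxcr4 and Cxcr3 and the first run in Ccrl2 match the part of the NF-kappaB site, which 4.36% of all 32851 promoters of this length hold, and the other run in Ccrl2 matches the HIF core, held by 19.6%. Ccrl2 had 3 annotated start sites, and the promoter at 1 of them is printed. Those at the others held the HIF core and no other match. No letters of the 6 motifs were found in this window of Cx3cr1. Of the members not printed, Ccr3 held an AP-1 match (7.81% of promoters) and a match to part of the NF-kappaB site, Ccr2 held an ISRE core (8.56%), and Cxcr6 held none. A GAS element stands in 8.3% and a cAMP response element in 1.79% of promoters, and none of these windows held either. Such matches are a description of the letters and not of binding.

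Across the 16 groups the members differed in how far they moved. The group means of Cxcr4 spanned 7.85 on the log2 scale, from 5.24 in WT LPS to 13.09 in Ifnar1-/- IFNβ+zVAD+Nec-1. Those of Ccrl2 spanned 6.77, from 9.45 in untreated Ifnar1-/- BMDMs to 16.22 in WT LPS+zVAD. Ccr2 spanned 5.79, Cxcr6 4.52, Ccr3 4.38, Cxcr3 3.81 and Ccr7 3.57. For Cx3cr1 the highest mean was 14.36 in WT zVAD and the lowest 9.59 in WT LPS+zVAD. Most groups that neighbour each other in these orders could not be told apart by their arrays. The arrays of neighbouring groups overlapped in 15 of 15 neighbour pairs for Ccr7, in 11 for Ccr3 and Ccrl2, and in 12 for each of the other genes.

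**Figure D1:**
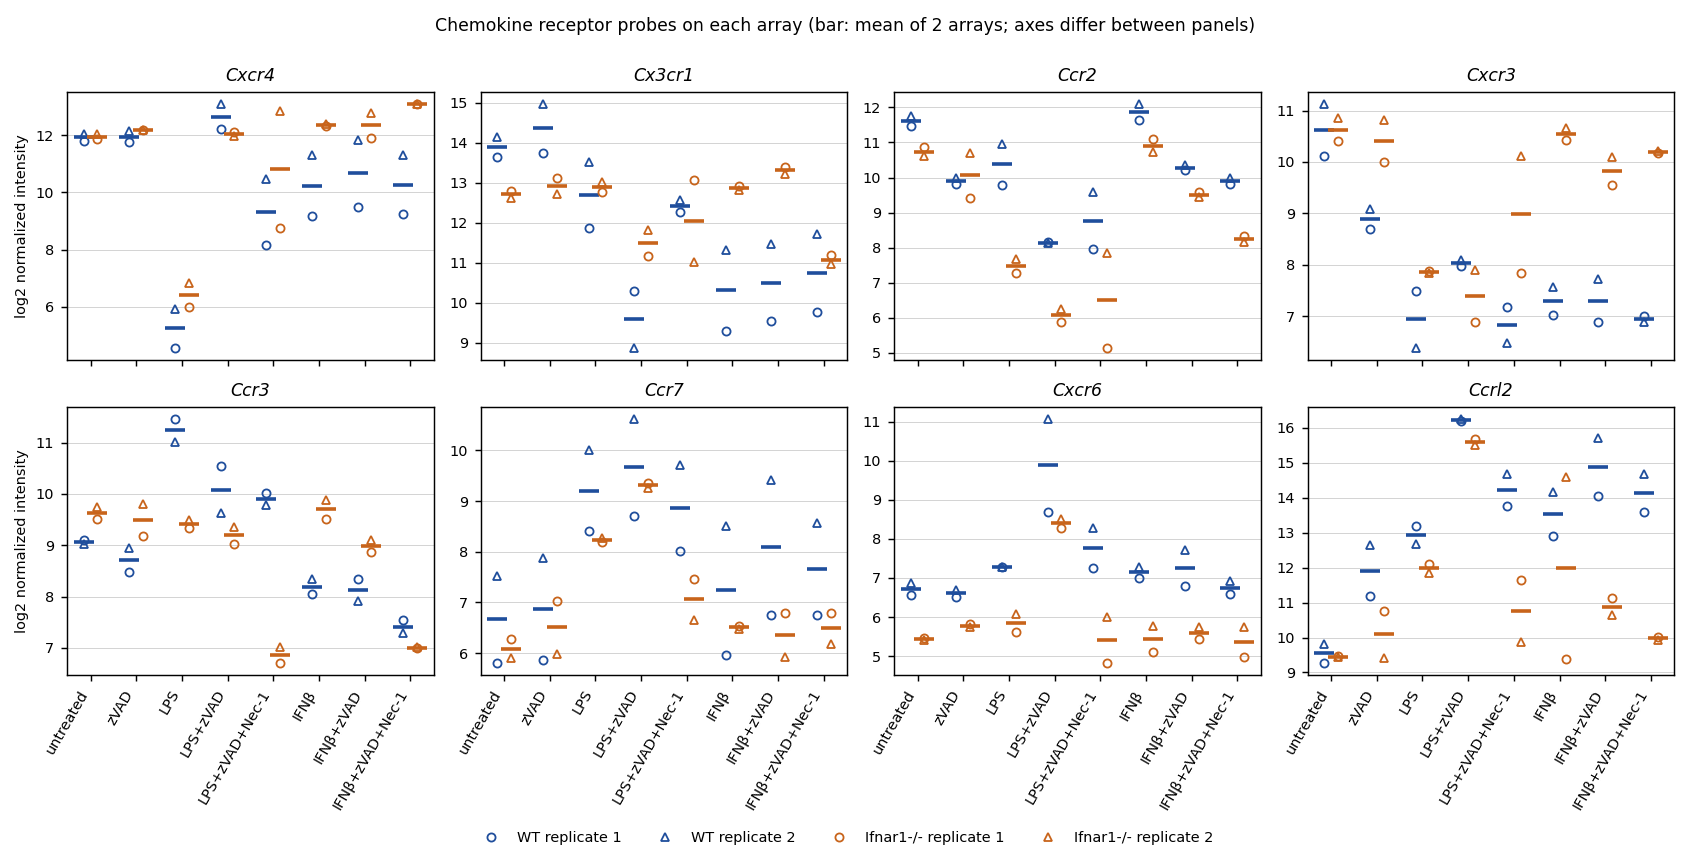
Log2 normalized intensity of each of the 8 receptor genes (1 panel per gene, own vertical axis) in the 16 groups, with a circle for replicate 1, a triangle for replicate 2 and a bar at the mean, WT in blue and Ifnar1-/- in orange. Cxcr4 drops to between 4.57 and 6.82 on the 4 arrays treated with LPS alone and stands between 11.97 and 13.10 with LPS+zVAD, and Ccr7 shows WT replicate 2 above replicate 1 in every treatment.

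Apart from zVAD alone, each treatment gave more calls among these receptors in WT than in Ifnar1-/- BMDMs, as it did among all genes. The difference in counts was not itself tested. With LPS, 5 of the 8 members were called in WT BMDMs, where 41.2% of all genes were called (Ccr3, Ccr7 and Ccrl2 higher, Cxcr3 and Cxcr4 lower). With IFNβ 4 members were called against 35.3% of all genes (Ccrl2 higher, and Ccr3, Cx3cr1 and Cxcr3 lower). LPS+zVAD gave the most calls, 7 of 8 against 50.9% of all genes, with Cxcr4 the member that was not called. The counts were 4 of 8 with IFNβ+zVAD (37.5% of all genes), 4 with LPS+zVAD+Nec-1 (40.9%) and 5 with IFNβ+zVAD+Nec-1 (31.7%). zVAD alone gave 0 calls by limma (0.00624% of all genes), with 3 members at an unadjusted p under 0.05. Apart from zVAD alone, between 31.7% and 50.9% of all genes were called in these comparisons, and with 8 members the counts say nothing about receptors as a class.

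LPS called 3 members in Ifnar1-/- BMDMs (24.8% of all genes), namely Ccr2, Cxcr3 and Cxcr4, all lower. With LPS+zVAD 5 were called (28.2%), Ccr7, Ccrl2 and Cxcr6 higher and Ccr2 and Cxcr3 lower. IFNβ gave 0 calls by limma (0% of all genes), with 1 member at an unadjusted p under 0.05, as did IFNβ+zVAD (0.00624% of all genes, 1 member). zVAD alone also gave 0 (0%), with 0 members at that level. LPS+zVAD+Nec-1 gave 2 calls (1.32%) and IFNβ+zVAD+Nec-1 also 2 (1.76%), in both cases Ccr2 and Ccr3, which were lower. The treatments share their untreated arrays, so the counts are not independent of each other.

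**Figure D2:**
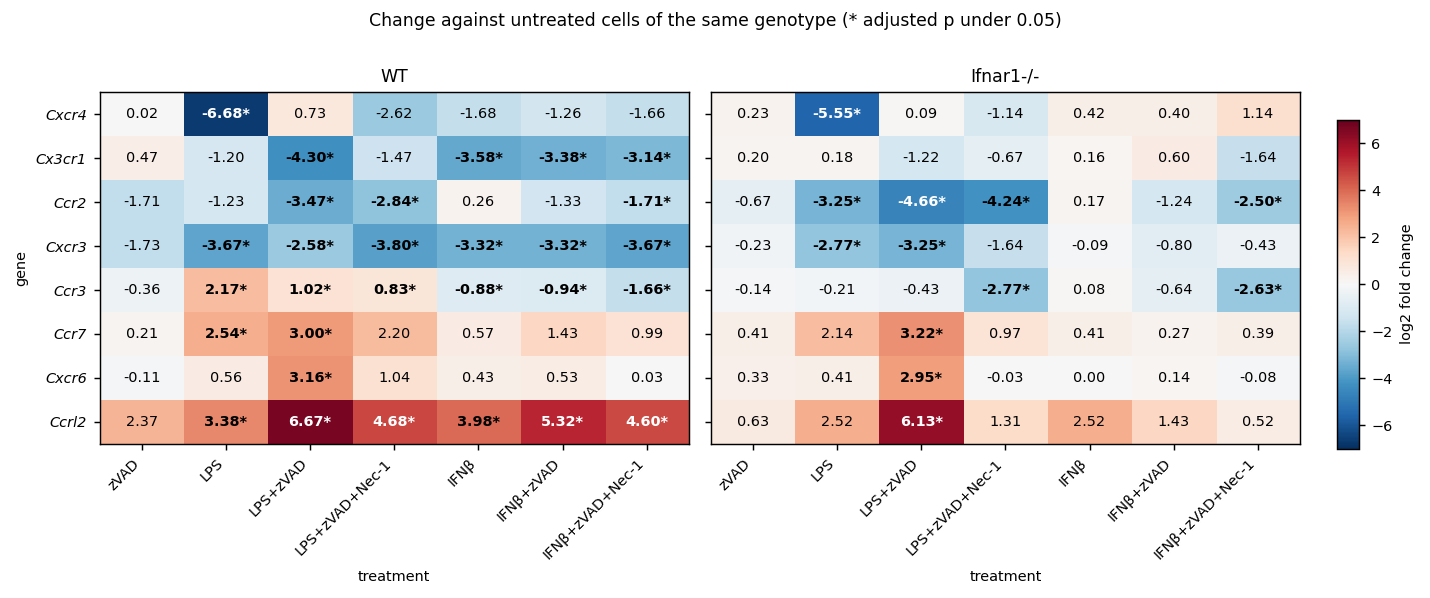
Heat map of the log2 change against untreated BMDMs of the same genotype for the 8 genes (rows) under the 7 treatments in WT and in Ifnar1-/- BMDMs (columns), red for higher, blue for lower, with a star at an adjusted p under 0.05. Cxcr4 is deep blue under LPS alone in both genotypes (-6.68 and -5.55), and the IFNβ columns hold 4 stars in WT and 0 in Ifnar1-/- BMDMs.

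Cxcr4, the receptor for Cxcl12 that retains leukocytes and progenitors in the bone marrow, fell with LPS and did not differ detectably from the untreated level with LPS+zVAD. It read 11.81 and 12.04 on the untreated WT arrays, 4.57 and 5.92 with LPS, and 12.21 and 13.10 with LPS+zVAD. The Ifnar1-/- arrays read 11.88 and 12.03 untreated, 5.99 and 6.82 with LPS, and 12.11 and 11.97 with LPS+zVAD. In both genotypes the LPS arrays lay far below all others, without overlap. LPS lowered Cxcr4 by 103-fold in WT (log2 change -6.68, SE 1.06, adjusted p = 6.17e-05) and by 46.7-fold in Ifnar1-/- BMDMs (-5.55, adjusted p = 0.000895). Between LPS and LPS+zVAD it rose by 170-fold in WT (log2 change 7.41, adjusted p = 2.9e-05) and by 49.6-fold in Ifnar1-/- BMDMs (5.63, adjusted p = 0.00244). The rise was present on each slide, at 7.64 and 7.18 in WT and 6.11 and 5.15 in Ifnar1-/- BMDMs, and it stayed called whichever array was left out. These data come from whole cultures, in which fewer cells of a type and less RNA per cell cannot be told apart.

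zVAD by itself left Cxcr4 where it was within error, with changes of 0.02 in WT and 0.23 in Ifnar1-/- BMDMs, and so did zVAD added to IFNβ (0.42 and -0.02, adjusted p = 1 in both). With IFNβ alone WT arrays read 9.18 and 11.30, a change of -1.68 that was not called (adjusted p = 0.242), and Ifnar1-/- arrays read 12.33 and 12.41. Adding Nec-1 to LPS+zVAD gave 8.15 and 10.47 in WT, below both LPS+zVAD arrays, a change of -3.35 (SE 1.06, adjusted p = 0.0225). That call was lost without WT LPS+zVAD replicate 2 (-2.9, adjusted p = 0.159) or without WT LPS+zVAD+Nec-1 replicate 1 (-2.19, adjusted p = 0.236). Against untreated WT BMDMs the change with LPS+zVAD+Nec-1 was -2.62 (adjusted p = 0.0551, and 0.00872 with the slide as a block). The Ifnar1-/- arrays with Nec-1 read 8.75 and 12.86, on either side of the LPS+zVAD arrays, and the change of -1.23 was not called (adjusted p = 0.468). It was -3.29 without Ifnar1-/- LPS+zVAD+Nec-1 replicate 2 (adjusted p = 0.0524) and 0.83 without replicate 1 (adjusted p = 0.609). Against untreated Ifnar1-/- BMDMs it was -1.14 (adjusted p = 0.789), and -3.2 without replicate 2 (adjusted p = 0.043).
The Cxcr4 response did not differ detectably between genotypes. The Ifnar1-/- minus WT difference was 1.14 for LPS (SE 1.49, adjusted p = 0.798), 2.1 for IFNβ (adjusted p = 0.377) and -1.78 for zVAD added to LPS (adjusted p = 0.66). The gene for its ligand, Cxcl12, read 6.22 and 6.79 on the untreated WT arrays and was not called with LPS in WT (adjusted p = 0.931). Its one call among the LPS and LPS+zVAD comparisons against untreated BMDMs was a fall by 2.16 in Ifnar1-/- LPS+zVAD (adjusted p = 0.0371). The 5 genes whose 16 group means were most like those of Cxcr4 were Mknk2 (Pearson r 0.974), Wdr91 (0.97), 2310044G17Rik (0.961), Sgk3 (0.96) and Gtl3 (0.957), given as a description over means that share slides and controls.

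**Figure D3:**
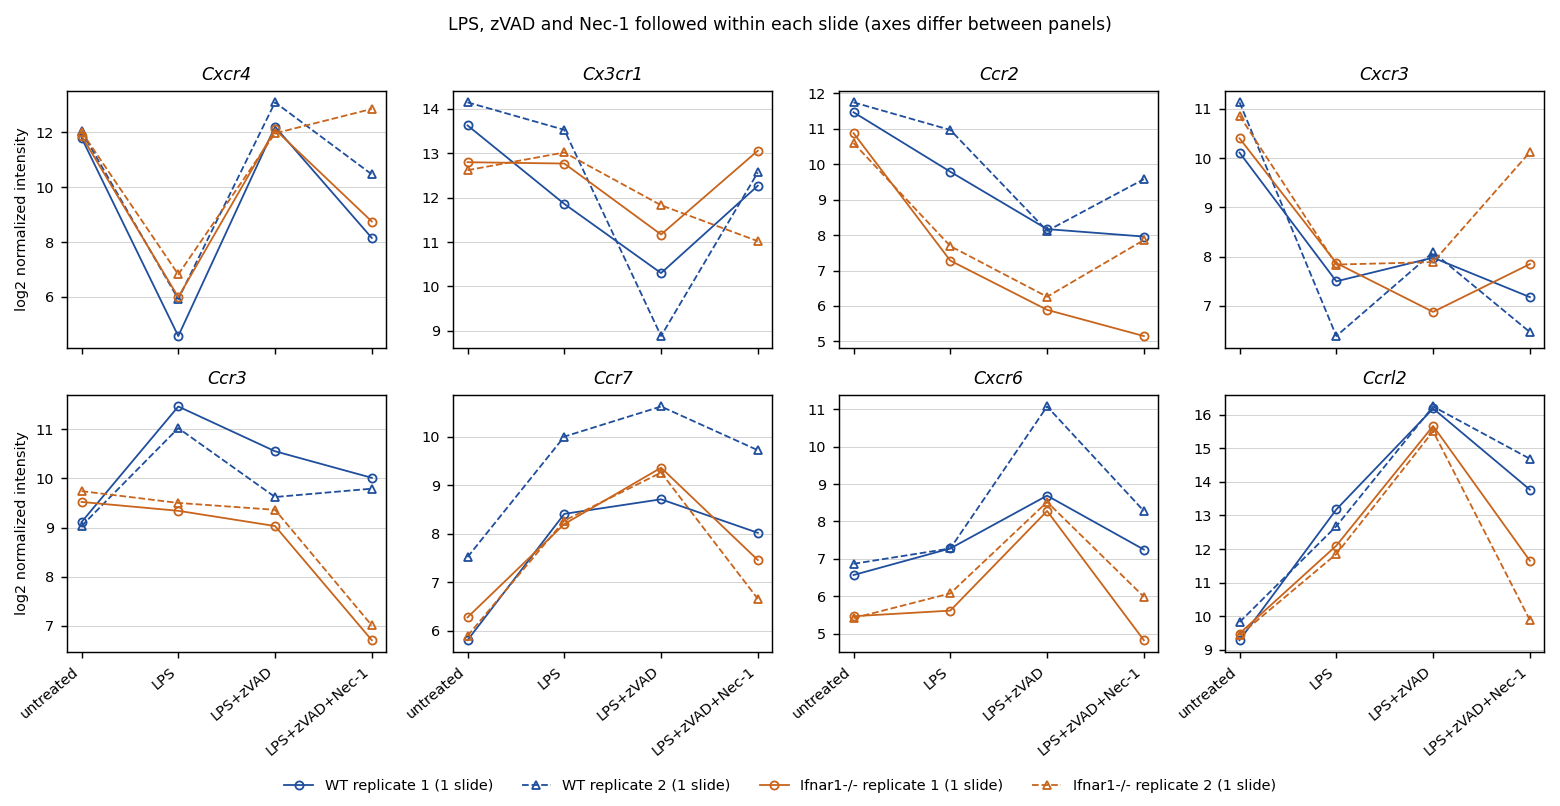
Log2 normalized intensity of each receptor gene in untreated, LPS, LPS+zVAD and LPS+zVAD+Nec-1 BMDMs, with 1 line for each of the 4 slides (WT in blue, Ifnar1-/- in orange, replicate 1 solid and replicate 2 dashed). The 4 Cxcr4 lines fall with LPS and return with LPS+zVAD, and with Nec-1 the Ifnar1-/- lines part to 8.75 and 12.86.

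Cxcr3, the receptor for the interferon-induced chemokines Cxcl9, Cxcl10 and Cxcl11, best known from effector T cells, fell with every treatment of WT BMDMs that contained LPS or IFNβ. Untreated WT arrays read 10.11 and 11.13, LPS arrays 7.50 and 6.39, and IFNβ arrays 7.02 and 7.57. The changes in WT ran from -3.80 with LPS+zVAD+Nec-1 to -2.58 with LPS+zVAD (SE 0.56, adjusted p at most 0.000744), and all 6 stayed called whichever array was left out. zVAD alone gave 8.70 and 9.08, a change of -1.73 that was not called (adjusted p = 0.617). LPS gave 7.87 and 7.84 against 10.40 and 10.86 untreated in Ifnar1-/- BMDMs (log2 change -2.77, adjusted p = 0.00144), and LPS+zVAD 6.88 and 7.89 (-3.25, adjusted p = 0.00037). IFNβ left the Ifnar1-/- arrays at 10.42 and 10.67, within the untreated range. With LPS+zVAD+Nec-1 they read 7.85 and 10.12, and the change of -1.64 against untreated was not called (adjusted p = 0.179), but was -2.77 without replicate 2 of that group (adjusted p = 0.00141). Against LPS+zVAD the change was 1.60 (adjusted p = 0.0531, 0.0177 with the slide as a block, and 2.74 with adjusted p = 0.000925 without replicate 1).
The response of Cxcr3 to IFNβ differed between genotypes by 3.24 (SE 0.79, adjusted p = 0.00762), a difference that stayed called whichever array was left out. For IFNβ+zVAD the difference was 2.52 (adjusted p = 0.0322). That call was lost without WT untreated replicate 2 (2.01, adjusted p = 0.145), Ifnar1-/- untreated replicate 1, WT IFNβ+zVAD replicate 1 or Ifnar1-/- IFNβ+zVAD replicate 2. Among the ligands, Cxcl9 rose by 6.29 with LPS and by 8.87 with IFNβ in WT BMDMs, while its change with IFNβ in Ifnar1-/- BMDMs was 0.25 (adjusted p = 1). Cxcl10 rose by 4.54 with LPS in WT and by 7.53 in Ifnar1-/- BMDMs. Cxcl11 was not called in any of these. Its probe read between 16.98 and 17.65 on all 32 arrays, untreated ones included, and whether it follows Cxcl11 RNA was not tested. The 9 T cell markers on the array had a summed log2 intensity of 12.12 to 14.73, with 13.37 and 13.46 in untreated WT and 14.61 and 13.57 in WT IFNβ BMDMs, and their part in these values was not tested. Of these markers Cd3e, Cd4, Lck, Cd5 and Tcrb-J were well above background on all 32 arrays, Cd2 on 22, Cd8a on 17, Cd3d on 4 and Cd3g on 3.

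Cxcr6, the receptor for the transmembrane chemokine Cxcl16, rose with LPS+zVAD in both genotypes and was called under no other treatment in comparison with untreated BMDMs. In WT it read 6.57 and 6.87 untreated, 7.28 and 7.28 with LPS, and 8.69 and 11.07 with LPS+zVAD. Ifnar1-/- values were 5.47 and 5.42 untreated, 5.62 and 6.08 with LPS, and 8.28 and 8.52 with LPS+zVAD. The LPS+zVAD arrays were above all untreated and LPS arrays of their genotype. Against untreated BMDMs the rise was 8.93-fold in WT (log2 change 3.16, SE 0.54, adjusted p = 7.84e-05) and 7.74-fold in Ifnar1-/- BMDMs (2.95, adjusted p = 0.000622). Much of the WT value came from 1 array, since without WT LPS+zVAD replicate 2 it was 1.97 (adjusted p = 0.00288).
zVAD added to LPS raised Cxcr6 by 2.60 in WT (adjusted p = 0.00102) and by 2.55 in Ifnar1-/- BMDMs (adjusted p = 0.00616). Without WT LPS+zVAD replicate 2 the first was 1.41 (adjusted p = 0.0418), and the second was lost without Ifnar1-/- LPS replicate 1 (2.31, adjusted p = 0.0802) or Ifnar1-/- LPS+zVAD replicate 2 (2.42, adjusted p = 0.0532). Nec-1 brought the Ifnar1-/- arrays to 4.83 and 5.99, a fall by 2.98 (adjusted p = 0.0012) that held without either array. In WT BMDMs Nec-1 gave 7.25 and 8.28, and Cxcr6 fell by 2.12 (adjusted p = 0.00622). This was -3.3 without WT LPS+zVAD replicate 1 (adjusted p = 6.53e-05), and the call was lost without WT LPS+zVAD replicate 2 (-0.93, adjusted p = 0.221) or WT LPS+zVAD+Nec-1 replicate 1 (-1.6, adjusted p = 0.0908). WT LPS+zVAD+Nec-1 was 1.04 above untreated (adjusted p = 0.139, and 0.0421 with the slide as a block). Cxcl16 itself was not called with LPS+zVAD in either genotype, with changes of 0.07 and 0.97. A second Cxcr6 probe, well above background on 23 arrays, gave 3.13 in WT and 1.80 in Ifnar1-/- BMDMs for LPS+zVAD against untreated. For LPS against untreated in Ifnar1-/- BMDMs it gave -1.18, where the probe in use gave 0.41. For zVAD added to LPS it gave 2.60 in WT and 2.98 in Ifnar1-/- BMDMs.

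Cx3cr1, the fractalkine receptor of monocytes and tissue macrophages, fell with IFNβ and with LPS+zVAD in WT BMDMs. It read 13.63 and 14.15 untreated, 9.29 and 11.33 with IFNβ, 10.30 and 8.88 with LPS+zVAD, and 11.86 and 13.53 with LPS. All arrays of IFNβ and of LPS+zVAD lay below both untreated arrays. IFNβ lowered it 12-fold (log2 change -3.58, SE 0.80, adjusted p = 0.00174) and LPS+zVAD 19.7-fold (-4.30, adjusted p = 0.000168), and both calls held whichever array was left out. With LPS alone the change of -1.20 was not called (adjusted p = 0.257), and zVAD alone gave 13.75 and 14.97. Relative to LPS, adding zVAD lowered it by 3.10 (adjusted p = 0.00505), but not without WT LPS replicate 2 (-2.27, adjusted p = 0.1) or WT LPS+zVAD replicate 2 (-2.39, adjusted p = 0.0869).
With Nec-1 added to LPS+zVAD the WT arrays read 12.27 and 12.57, above both LPS+zVAD arrays, and Cx3cr1 rose by 2.83 (adjusted p = 0.0116). That call was lost without WT LPS+zVAD replicate 2 (2.12, adjusted p = 0.158) or WT LPS+zVAD+Nec-1 replicate 2 (2.68, adjusted p = 0.072). After IFNβ+zVAD the WT arrays read 9.55 and 11.46 without it and 9.77 and 11.73 with it. Against untreated it fell with IFNβ+zVAD (log2 change -3.38, adjusted p = 0.00251) and with IFNβ+zVAD+Nec-1 (-3.14, adjusted p = 0.00532). Both calls were lost without replicate 1 of the treated group, at -2.43 (adjusted p = 0.0548) and -2.16 (adjusted p = 0.106). Its 3 probes gave like values, with WT changes of -3.58, -3.99 and -3.71 for IFNβ and of -4.30, -4.54 and -4.25 for LPS+zVAD.

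Cx3cr1 was called with no treatment of Ifnar1-/- BMDMs by limma, with 0 of the 7 at an unadjusted p under 0.05. It read 12.80 and 12.62 untreated, 12.77 and 13.02 with LPS, 12.92 and 12.83 with IFNβ, and 11.17 and 11.83 with LPS+zVAD. The arrays with LPS+zVAD+Nec-1 disagreed, at 13.06 and 11.02. The largest departure in the mean was -1.64, with IFNβ+zVAD+Nec-1 (adjusted p = 0.522), and that with LPS+zVAD was -1.22 (adjusted p = 0.288). The IFNβ response differed between genotypes by 3.74 (SE 1.13, adjusted p = 0.026) and the IFNβ+zVAD response by 3.98 (adjusted p = 0.0187). The first rests on many arrays, as leaving out any of 6 arrays (WT untreated replicate 2, WT IFNβ replicate 1, and all 4 Ifnar1-/- arrays compared) ended the call, with differences of 2.72 to 3.83 and adjusted p up to 0.143. The second was lost without WT IFNβ+zVAD replicate 1 (3.02, adjusted p = 0.0951), WT untreated replicate 2 (adjusted p = 0.0664), Ifnar1-/- untreated replicate 2 (adjusted p = 0.0526) or Ifnar1-/- IFNβ+zVAD replicate 1 (adjusted p = 0.0509). The difference for LPS+zVAD was 3.09 (adjusted p = 0.0713, and 0.0192 with the slide as a block).
Cx3cl1, which encodes fractalkine, rose by 1.92 with LPS in WT BMDMs (adjusted p = 0.0365) and had a change of -0.54 with IFNβ. The 5 genes with group means most like those of Cx3cr1 were Adck5 (Pearson r 0.934), Ube2v1 (0.932), Slc26a6 (0.92), Cherp (0.912) and Paip1 (0.91).

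Ccr2, the receptor for Ccl2 that draws monocytes out of the marrow, fell with LPS+zVAD in both genotypes. With LPS alone it was lower in both, and in the main fit this fall was called only in Ifnar1-/- BMDMs. WT arrays read 11.47 and 11.75 untreated, 9.79 and 10.97 with LPS, 8.17 and 8.12 with LPS+zVAD, and 7.96 and 9.58 with LPS+zVAD+Nec-1. Ifnar1-/- arrays read 10.88 and 10.60 untreated, 7.28 and 7.69 with LPS, 5.89 and 6.26 with LPS+zVAD, and 5.15 and 7.86 with LPS+zVAD+Nec-1. Within each genotype every LPS-containing array was below both untreated arrays. The fall with LPS+zVAD was 11.1-fold in WT (log2 change -3.47, SE 0.62, adjusted p = 0.000119) and 25.3-fold in Ifnar1-/- BMDMs (-4.66, adjusted p = 4.62e-05). With LPS alone it was -3.25 in Ifnar1-/- BMDMs (adjusted p = 0.000918) and -1.23 in WT, which was not called (adjusted p = 0.127). The WT change was called with normexp background correction (-1.19, adjusted p = 0.0424). It was also called without both Ifnar1-/- LPS+zVAD+Nec-1 arrays (-1.23, adjusted p = 0.0332).
The difference between genotypes in the LPS response of Ccr2 was -2.03 (SE 0.88) and was not called (adjusted p = 0.202). zVAD added to LPS lowered Ccr2 by 2.24 in WT (adjusted p = 0.00846), a call lost without WT LPS replicate 2 (-1.65, adjusted p = 0.132) or WT LPS+zVAD replicate 2 (-2.21, adjusted p = 0.0515). For Ifnar1-/- BMDMs the change was -1.41 (adjusted p = 0.189). The arrays with Nec-1 stayed low, with changes against untreated of -2.84 in WT (adjusted p = 0.00121) and -4.24 in Ifnar1-/- BMDMs (adjusted p = 0.00217). The latter was -2.88 without Ifnar1-/- LPS+zVAD+Nec-1 replicate 1 and -5.59 without replicate 2. Against LPS+zVAD it was 0.43, or 1.78 without replicate 1 (adjusted p = 0.0211). IFNβ alone left Ccr2 at 11.63 and 12.10 in WT. zVAD alone gave 9.81 to 9.98 in WT, a change of -1.71 that was not called, and -0.67 in Ifnar1-/- BMDMs. With IFNβ+zVAD the changes were -1.33 in WT and -1.24 in Ifnar1-/- BMDMs, neither called. The WT change was called in some other settings, such as normexp background correction (adjusted p = 0.0264). IFNβ+zVAD+Nec-1 gave falls by 1.71 in WT (adjusted p = 0.0428) and by 2.50 in Ifnar1-/- BMDMs (adjusted p = 0.0462). Both were lost whichever of their arrays was left out. Against IFNβ+zVAD the changes with Nec-1 were -0.38 and -1.26, neither called. The ligand gene Ccl2 rose by 6.51 with LPS and by 8.56 with LPS+zVAD in WT, and by 2.26 and 3.87 in Ifnar1-/- BMDMs. Ccl7 rose by 8.35 and 10.08 in WT BMDMs.

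Ccr3, the eotaxin receptor best known from eosinophils, rose with LPS in WT and not detectably in Ifnar1-/- BMDMs. In WT BMDMs it read 9.11 and 9.03 untreated, 11.46 and 11.02 with LPS, 10.55 and 9.62 with LPS+zVAD, and 8.04 and 8.34 with IFNβ. Ifnar1-/- values were 9.52 and 9.74 untreated, 9.34 and 9.50 with LPS, and 9.03 and 9.36 with LPS+zVAD. The WT LPS arrays lay above all other arrays of both genotypes. LPS raised Ccr3 by 4.51-fold in WT (log2 change 2.17, SE 0.28, adjusted p = 8.22e-06), while the change in Ifnar1-/- BMDMs was -0.21, a difference of -2.38 (SE 0.40, adjusted p = 0.00105) that stayed called whichever array was left out. The difference for LPS+zVAD was -1.45 (adjusted p = 0.0169), lost without WT untreated replicate 2 (adjusted p = 0.0563), Ifnar1-/- untreated replicate 2 (adjusted p = 0.0622), WT LPS+zVAD replicate 1 (-0.99, adjusted p = 0.0886) or Ifnar1-/- LPS+zVAD replicate 1 (adjusted p = 0.069). That for IFNβ was 0.95 (adjusted p = 0.105, and 0.0339 with the slide as a block).
IFNβ lowered Ccr3 in WT BMDMs by 0.88 (adjusted p = 0.0202) and IFNβ+zVAD by 0.94 (adjusted p = 0.0127). Leaving out either untreated array or WT IFNβ replicate 1 (-0.73, adjusted p = 0.142) ended the first call, and WT untreated replicate 1 (adjusted p = 0.0639) or WT IFNβ+zVAD replicate 2 (-0.74, adjusted p = 0.12) the second. The rise of 1.02 with LPS+zVAD (adjusted p = 0.00516) was 0.55 without WT LPS+zVAD replicate 1 (adjusted p = 0.141). Relative to LPS, zVAD lowered Ccr3 by 1.16 in WT (adjusted p = 0.00328), which was -0.7 without WT LPS+zVAD replicate 2 (adjusted p = 0.106).
The Ccr3 values with Nec-1 were the lowest of all in Ifnar1-/- BMDMs, at 6.71 and 7.01 with LPS+zVAD+Nec-1 and 6.99 and 7.01 with IFNβ+zVAD+Nec-1. These 4 arrays lay below all the other arrays. Nec-1 lowered Ccr3 in Ifnar1-/- BMDMs both on top of LPS+zVAD (log2 change -2.34, adjusted p = 3.34e-05) and on top of IFNβ+zVAD (-1.98, adjusted p = 0.00174), and both falls held without any of their arrays, the first at -2.49 and -2.19 with only 1 of the 2 LPS+zVAD+Nec-1 arrays. In WT BMDMs the changes with Nec-1 were -0.19 and -0.72, neither called. Against untreated WT BMDMs Ccr3 fell by 1.66 with IFNβ+zVAD+Nec-1 (adjusted p = 0.000183) and rose by 0.83 with LPS+zVAD+Nec-1 (adjusted p = 0.0241), the rise being lost without either untreated array (adjusted p = 0.0703 and 0.106) or WT LPS+zVAD+Nec-1 replicate 1 (0.72, adjusted p = 0.138). Of its ligand genes, Ccl24 (eotaxin-2) rose with LPS by 2.90 in WT and by 3.40 in Ifnar1-/- BMDMs, and Ccl11 was not retained. The summed log2 intensity of the 6 eosinophil and mast cell markers was 10.27 to 11.15 on the WT arrays and 11.82 to 13.39 on the Ifnar1-/- arrays, without overlap, and its part in these values was not tested. Of these markers Prg2 and Siglec5 were well above background on all 32 arrays, Mcpt4 on 25, Cpa3 on 13, Epx on 1 and Fcer1a on 0. Siglec5 read 9.97 to 13.35, with a median of 11.30 against 7.70 for Prg2, so this 1 gene weighs most in the sum.

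Ccr7, the receptor for Ccl19 that guides maturing dendritic cells to lymph nodes, rose with LPS and LPS+zVAD, with a large spread between the WT slides. WT arrays read 5.81 and 7.52 untreated, 8.41 and 10.00 with LPS, and 8.71 and 10.62 with LPS+zVAD, with replicate 2 above replicate 1 in all 8 treatments. The LPS and LPS+zVAD arrays lay above both untreated ones, and within a slide the LPS array was higher than the untreated one by 2.60 and 2.49. The change was 2.54 with LPS (SE 0.99, adjusted p = 0.0465) and 3.0 with LPS+zVAD (adjusted p = 0.0162). The LPS call was lost without WT untreated replicate 1 (1.69, adjusted p = 0.305) or WT LPS replicate 2 (1.75, adjusted p = 0.281), and the LPS+zVAD call without WT untreated replicate 1 (2.14, adjusted p = 0.155) or WT LPS+zVAD replicate 2 (2.04, adjusted p = 0.182).
Ifnar1-/- arrays read 6.28 and 5.90 untreated, 8.2 and 8.27 with LPS, and 9.36 and 9.26 with LPS+zVAD, so that the treated arrays were above both untreated ones. The change was 2.14 with LPS (adjusted p = 0.131) and 3.22 with LPS+zVAD (adjusted p = 0.0203), the second lost whichever of its arrays was left out. With the slide as a block, the LPS change in Ifnar1-/- BMDMs had an adjusted p of 3.83e-05. The block also called Ccr7 in WT with IFNβ+zVAD (1.43, adjusted p = 0.000408), LPS+zVAD+Nec-1 (2.20, adjusted p = 5.89e-06) and IFNβ+zVAD+Nec-1 (0.99, adjusted p = 0.00764), and in Ifnar1-/- BMDMs with LPS+zVAD+Nec-1 (0.97, adjusted p = 0.0492).
Under the block zVAD added to LPS was also called in Ifnar1-/- BMDMs (1.08, adjusted p = 0.0125), and Nec-1 on top of LPS+zVAD in WT (-0.79, adjusted p = 0.0294) and in Ifnar1-/- BMDMs (-2.25, adjusted p = 3.29e-05). So was the difference between genotypes for IFNβ+zVAD (-1.16, adjusted p = 0.0303). Ccl19 rose by 1.5 with LPS in WT and by 1.02 in Ifnar1-/- BMDMs. The 6 dendritic cell markers summed to 16.07 and 16.35 in WT LPS and to 16.32 and 16.58 in untreated WT BMDMs. In Ifnar1-/- BMDMs the sums were 16.50 and 16.97 with LPS and 16.84 and 17.47 untreated. Their part in the Ccr7 values was not tested. Siglech (15.14 to 16.42) and Itgax (12.72 to 16.81), well above background on all 32 arrays, weigh most in the sum. Zbtb46 was well above background on 31 arrays, Flt3 on 30, Clec9a on 15 and Xcr1 on 2.

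Ccrl2, a receptor that binds chemerin without the usual G protein signalling and presents it to neighbouring cells, had the highest rises of the family against untreated BMDMs. WT arrays read 9.28 and 9.82 untreated, 13.18 and 12.68 with LPS, 12.89 and 14.17 with IFNβ, and 16.19 and 16.25 with LPS+zVAD. Ifnar1-/- arrays read 9.48 and 9.43 untreated, 12.10 and 11.85 with LPS, and 15.67 and 15.51 with LPS+zVAD. The LPS+zVAD arrays of both genotypes were above all LPS and untreated arrays. LPS+zVAD raised Ccrl2 by 102-fold in WT (log2 change 6.67, SE 1.06, adjusted p = 3.36e-05) and by 70.2-fold in Ifnar1-/- BMDMs (6.13, adjusted p = 0.000372), in both whichever array was left out. IFNβ+zVAD raised it by 5.32 in WT BMDMs (adjusted p = 0.000623). zVAD alone gave 11.19 and 12.64 in WT, above both untreated arrays, but the change of 2.37 was not called (adjusted p = 0.838).
LPS raised Ccrl2 by 3.38 in WT (adjusted p = 0.0153), lost without WT untreated replicate 1 (adjusted p = 0.0827) or WT LPS replicate 1 (adjusted p = 0.0877), and IFNβ by 3.98 (adjusted p = 0.00649), lost without WT IFNβ replicate 2 (3.35, adjusted p = 0.0656). In Ifnar1-/- BMDMs the change with LPS was 2.52 (adjusted p = 0.0942). zVAD on top of LPS raised it by 3.29 in WT (adjusted p = 0.0211) and by 3.61 in Ifnar1-/- BMDMs (adjusted p = 0.0418). The first was lost without WT LPS replicate 2 (3.04, adjusted p = 0.12), WT LPS+zVAD replicate 1 (adjusted p = 0.0684) or WT LPS+zVAD replicate 2 (adjusted p = 0.094), and the second whichever array was left out. Nec-1 on top of LPS+zVAD brought the Ifnar1-/- arrays to 11.65 and 9.88, a fall by 4.82 (adjusted p = 0.00433) that was lost without Ifnar1-/- LPS+zVAD+Nec-1 replicate 2 (-3.94, adjusted p = 0.0654). In WT BMDMs the arrays with Nec-1 read 13.77 and 14.69, and the change of -1.99 was not called (adjusted p = 0.184).
The 2 Ifnar1-/- IFNβ arrays disagreed on Ccrl2, at 9.38 and 14.58. This gap of 5.2 ranked 2 among the gaps of 16031 genes on those arrays, where the 99th percentile of gaps was 1.95, and its cause was not tested. The change of 2.52 with IFNβ was not called (adjusted p = 1) and was -0.08 without replicate 2. The difference between genotypes in the IFNβ response went from -1.46 (adjusted p = 0.569) to -4.06 (adjusted p = 0.0139) when that array was left out, and to 1.14 without replicate 1. Rarres2, which encodes chemerin, was not called with LPS, IFNβ or LPS+zVAD in either genotype.

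Taking the treatments stepwise, zVAD added to LPS called 6 of the 8 receptors in WT BMDMs (34.6% of all genes), with Cxcr4, Cxcr6 and Ccrl2 higher and Ccr2, Ccr3 and Cx3cr1 lower. Among Ifnar1-/- arrays it called 3 (8.25%), again Cxcr4, Cxcr6 and Ccrl2, all higher. Added to IFNβ, zVAD gave 0 calls by limma in WT (0% of all genes, with 1 member at an unadjusted p under 0.05) and 0 in Ifnar1-/- BMDMs (0.00624%, with 2 members). Nec-1 added to LPS+zVAD called 3 members in WT (28.5%), Cx3cr1 higher and Cxcr4 and Cxcr6 lower, and 3 in Ifnar1-/- BMDMs (18.8%), Ccr3, Ccrl2 and Cxcr6, all lower. Added to IFNβ+zVAD it gave 0 in WT by limma (0%, with 1 member at an unadjusted p under 0.05) and Ccr3 alone in Ifnar1-/- BMDMs (1.58%). Of the 9 calls with zVAD, 3 stayed whichever array was left out (Cxcr4 in both genotypes and Cxcr6 in WT). Of the 7 with Nec-1, 3 did (Ccr3 after either stimulus and Cxcr6 after LPS+zVAD, all in Ifnar1-/- BMDMs). The total for zVAD went to 5 without WT LPS+zVAD replicate 2, and that for Nec-1 to 4 without the same array.

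The response to a stimulus was set between genotypes in 6 ways. For LPS 1 member was called, Ccr3 (6.64% of all genes), and for LPS+zVAD also Ccr3 (16.1%). For IFNβ 2 were called, Cx3cr1 and Cxcr3 (18.8%), and for IFNβ+zVAD the same 2 genes (19.3%). For zVAD alone the count was 0 by limma (0% of all genes, with 0 members at an unadjusted p under 0.05), and for zVAD added to LPS also 0 (3.6%, with 1 member). The total of 6 fell to 2 without WT untreated replicate 2 and to 3 without Ifnar1-/- untreated replicate 2. A shift common to a slide drops out of the sizes of these differences. The fit had no term for the slide, so such shifts still add to their SE.

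**Figure D4:**
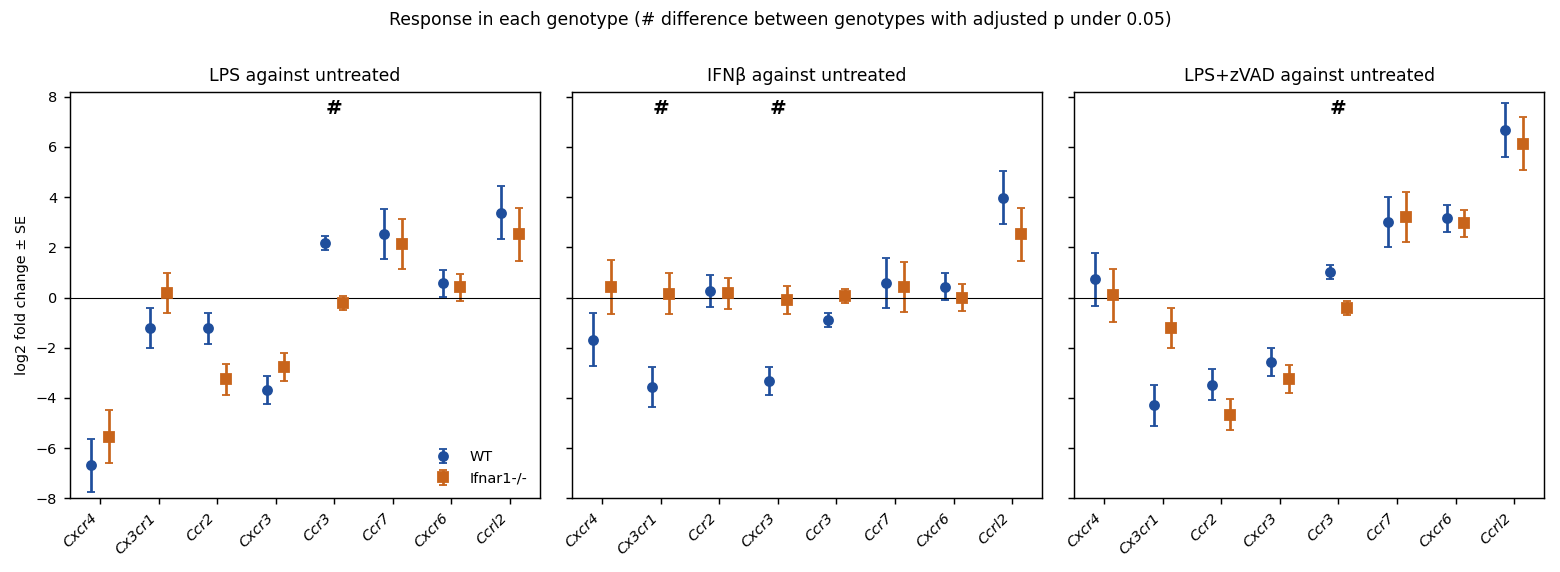
Log2 change against untreated BMDMs with its standard error for each receptor gene, WT in blue and Ifnar1-/- in orange, in 1 panel each for LPS, IFNβ and LPS+zVAD, with a # where the difference between genotypes was called. For IFNβ the Ifnar1-/- points of Cx3cr1 and Cxcr3 sit at 0.16 and -0.09 and the WT points at -3.58 and -3.32, and for LPS the Ccr3 points sit at -0.21 and 2.17.

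Set directly side by side in the same treatment, the genotypes differed in 24 of 64 member comparisons, and none of these can be told apart from the slide. The summed log2 intensity of the 5 stromal cell markers was 9.44 to 10.57 on the WT arrays and 10.97 to 12.65 on the Ifnar1-/- arrays, without overlap, as was that of the eosinophil and mast cell markers given above, and their part in these differences was not tested. Untreated BMDMs gave 0 calls by limma (8.72% of all genes, with 1 member at an unadjusted p under 0.05), and so did zVAD alone (8.18%, with 2 members). With LPS 2 members were called (28.4%), Ccr2 (-2.90, Ifnar1-/- minus WT) and Ccr3 (-1.82), both lower in Ifnar1-/- BMDMs. With IFNβ 4 were called (43.4%), of which Ccr3 (1.51) and Cxcr3 (3.25) were higher in Ifnar1-/- BMDMs whichever array was left out. Counts were 3 with LPS+zVAD (37.4%), 5 with IFNβ+zVAD (43.4%), 5 with LPS+zVAD+Nec-1 (39.9%) and 5 with IFNβ+zVAD+Nec-1 (41.5%). In all, 9 of the 24 calls held whichever array was left out. These include Cxcr3 with IFNβ+zVAD (2.53) and IFNβ+zVAD+Nec-1 (3.25), Ccr3 (-3.04) and Cxcr6 (-2.35) with LPS+zVAD+Nec-1, and Ccrl2 with IFNβ+zVAD+Nec-1 (-4.17). Calls with LPS+zVAD+Nec-1 that turned on the Ifnar1-/- arrays of that group were Ccr2, Ccrl2 and Cxcr3. Ccr2 was at -2.26, at -0.91 without replicate 1 (adjusted p = 0.199) and at -3.62 without replicate 2 (adjusted p = 7.8e-05). Ccrl2 was at -3.46, and at -2.58 without replicate 2 (adjusted p = 0.147). Cxcr3 was at 2.16, at 1.03 without replicate 2 (adjusted p = 0.159) and at 3.29 without replicate 1 (adjusted p = 7.31e-05). Each of these 3 calls was also lost without WT LPS+zVAD+Nec-1 replicate 2, at -1.45, -3.0 and 1.81. Cxcr4 was not called, at 1.5 (adjusted p = 0.282), but was at 3.56 without replicate 1 of the Ifnar1-/- group (adjusted p = 0.00921). With the slide as a block, which leaves slide and genotype confounded, 35 were called.

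The other genes of the pathway give the setting. Of 14 ligand genes tested, 10 were called in WT BMDMs with LPS (41.2% of all genes) and 8 with IFNβ (35.3%), each higher, with a median log2 change of 3.23 and 2.54 against -0.08 and -0.17 for all genes. In Ifnar1-/- BMDMs 7 were called with LPS (24.8%), each higher. LPS+zVAD called 8 in WT (50.9%), each higher. In Ifnar1-/- BMDMs it called 7 as higher and Cxcl12 as lower (28.2%). Of 9 other chemokine receptors that were retained, 5 were called in WT LPS (41.2% of all genes), each higher: Ccr1 (3.37), Ccr9 (3.07), Ccr8 (2.22), Ccr1l1 (2.07) and the signalling chemerin receptor Cmklr1 (2.03). The median of the 9 was 2.07 against -0.08 for all genes. With LPS in Ifnar1-/- BMDMs Ccr9 (3.0) and Cmklr1 (2.55) rose. zVAD added to LPS lowered Cmklr1 by 3.22 in WT BMDMs (adjusted p = 0.00127). Cmklr1 read 2.38 to 7.64 and was well above background on only 21 arrays, so the sizes of its changes are uncertain. Ccr1 read 3.18 to 8.25 and passed on 28 arrays. Nec-1 added to LPS+zVAD lowered Ccr1 (-2.92) and Ccr1l1 (-2.38) in Ifnar1-/- BMDMs.

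All 37 genes of a list of receptor signalling components were tested. With LPS 9 were higher and 9 lower in WT BMDMs, where 41.2% of all genes were called, a share near that of the list. With LPS+zVAD 8 were higher and 15 lower (50.9%), with a median of -0.43 against -0.15 for all genes. Arrb1, which encodes the arrestin that uncouples and internalizes these receptors, fell in WT BMDMs by 3.46 with LPS, by 3.41 with IFNβ and by 3.03 with LPS+zVAD. The receptor kinase genes Adrbk1 and Grk6 fell by 2.39 and 2.29 with LPS+zVAD. A fall with LPS and a rise with added zVAD, as in Cxcr4, was also measured for Rgs2, a brake on G protein signalling, which fell with LPS by 4.31 in WT and 5.09 in Ifnar1-/- BMDMs and rose by 3.40 and 3.28 when zVAD was added. Rgs1, which dampens chemokine responses, rose when zVAD was added to LPS by 5.17 in WT and by 5.48 in Ifnar1-/- BMDMs, and Nec-1 lowered it by 2.66 and 2.62. Pik3cg, the kinase gamma subunit gene, fell by 2.68 when zVAD was added to LPS in WT BMDMs, and Gng2 rose by 2.09.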

How the data were processed

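RNA from BMDMs was labelled with Cy3 and hybridized to 32 1-colour Agilent mouse arrays. Per the file headers, the deposited intensity of a spot is the scanner software's processed signal, with the local background subtracted, trends within the array removed and very dim values replaced by a surrogate. The authors also deposited a table of normalized log2 values, which was used as an alternative only; per their methods, probes above background on at least 50% of arrays were kept, background-subtracted and quantile-normalized. In that table the Cxcr3 probe is empty for 26 of 32 arrays.

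Here the processed intensities were taken to log2, outlier spots, 130 to 499 on an array, were dropped, and arrays were quantile-normalized. The filter kept probes well above background on 50% of arrays or more, which left 21462 of 33140 probes with a symbol, and the brightest probe of each gene was used. On an array 44.5% to 78% of probes were well above background. The number of arrays, 2 per group, limits the precision.

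Differences were tested with limma 3.58.1 in R 4.3.3, in 1 fit of 16 group means with 16 residual degrees of freedom, over 36 comparisons. P-values were adjusted by Benjamini-Hochberg over all genes of a comparison and called under 0.05. The scripts were tested on simulated data. All 8 members are named. Of the pathway lists (ligands of the members, other chemokine receptors, receptor signalling), counts are given. Names are given from among called genes with an absolute log2 change of at least 2, at most 6 per list and comparison, and for ligands of a member. Not every such gene is named, and the ligand genes Ccl5, Ccl8 and Ccl12 are among those left out. 1 gene of these lists is not reported here and is in none of their counts. Calls of list genes were not recomputed with arrays left out. The members and lists were chosen with earlier results of these data known, so the p-values of the members, of Cxcr4 and Cx3cr1 above all, are no independent evidence.

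Arrays with the same replicate number within a genotype share a slide. Their deviations from the group means correlated in all 28 pairs of groups, at 0.32 to 0.67 in WT (median 0.48) and 0.17 to 0.58 in Ifnar1-/- BMDMs (median 0.44), over 15752 genes. The numbers therefore pair the samples, and a fit with the slide as a replicate block was an alternative. Other alternatives were a shift to a common 75th percentile, normexp background correction with an offset of 50, no filter on dim probes or a filter on both arrays of 1 group, the mean of a gene's probes, a fit of only the arrays compared, a fit that drops both arrays of Ifnar1-/- LPS+zVAD+Nec-1, the authors' log2 table, and each array left out in turn.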

Additional observations from a re-analysis of the deposited data

Results flagged for a closer look

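In 6 cases the response of a receptor gene differed between the genotypes by limma's test of the difference itself (Ifnar1-/- minus WT, 2 arrays per group, no term for the slide). For LPS, Ccr3 differed by -2.38 (adjusted p = 0.00105), with a change of 2.17 in WT and of -0.21 in Ifnar1-/- BMDMs. For LPS+zVAD it differed by -1.45 (adjusted p = 0.0169), with 1.02 and -0.43. For IFNβ, Cx3cr1 differed by 3.74 (adjusted p = 0.026), with -3.58 and 0.16, and Cxcr3 by 3.24 (adjusted p = 0.00762), with -3.32 and -0.09. For IFNβ+zVAD, Cx3cr1 differed by 3.98 (adjusted p = 0.0187), with -3.38 and 0.60, and Cxcr3 by 2.52 (adjusted p = 0.0322), with -3.32 and -0.80. Of these, Ccr3 with LPS and Cxcr3 with IFNβ were called whichever array was left out.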

How the results depend on the processing

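Of 87 called results among 288, 74 stayed called in every other setting that keeps the shared estimate of the spread and gave a value (all 8 settings for 53 of them, fewer for 21), and no called result changed direction. With the slide as a replicate block 25 results were gained and 0 lost, and it changed no other call. The calls with Nec-1 went from 7 to 10 and those between genotypes in a response from 6 to 9. Those in the direct comparison of genotypes went from 24 to 35, and the gains outside it are given beside their genes. A limma fit of only the arrays compared, with 2 residual degrees of freedom, left 0 of 32 results called for Nec-1, with 12 at an unadjusted p under 0.05. Over all comparisons this fit lost 24 calls and gained 13. Among those lost were Cxcr6 for WT LPS+zVAD against LPS (adjusted p = 0.0904), Cx3cr1 for the same comparison (0.0553), Ccr7 for WT LPS (0.0778), Ccr3 for WT LPS+zVAD against untreated (0.0801) and, for Ifnar1-/- LPS+zVAD+Nec-1 against untreated, Ccr2 and Ccr3 (0.988 for both). It gave Cx3cr1 -1.47 (adjusted p = 0.0224, gained) for WT LPS+zVAD+Nec-1, -3.14 (adjusted p = 0.0578, lost) for WT IFNβ+zVAD+Nec-1 and -1.22 (adjusted p = 0.0312, gained) for Ifnar1-/- LPS+zVAD, each against untreated. With 1 array left out, the calls ranged from 5 to 9 for zVAD (main 9), 4 to 10 for Nec-1 and 2 to 7 for differences between genotypes, and from 22 to 30 for treatments in WT (main 29), 10 to 14 in Ifnar1-/- BMDMs (main 12) and 20 to 28 between genotypes. Cx3cr1 ranged from -4.34 to -2.43 for WT IFNβ+zVAD and from -4.12 to -2.16 for WT IFNβ+zVAD+Nec-1. The cause was not tested. A shift to the 75th percentile moved the median change of all genes by up to 0.27 within a genotype (from -0.15 to 0.12 for WT LPS+zVAD) and by up to -0.29 between genotypes. Under it the IFNβ difference of Cx3cr1 was 3.5 (adjusted p = 0.0502). The counts from the authors' table cover fewer results for Cxcr3. Without both arrays of Ifnar1-/- LPS+zVAD+Nec-1, calls went from 29 to 32 for treatments in WT and from 9 to 10 for zVAD. Those for differences between genotypes in a response went from 6 to 7. These comparisons do not use the 2 arrays, which enter only the shared estimate of the spread. Among the gains were Cxcr4 for WT LPS+zVAD+Nec-1 against untreated (-2.62, adjusted p = 0.0165) and the LPS+zVAD difference of Cx3cr1 (3.09, adjusted p = 0.0468).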
